A study of Homo sapiens with 10 samples.

Results

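This account concerns 41 genes of the extracellular matrix, taken by name from the 33551 rows of a count table of A549 cells: the type IV collagens, the collagen IV peroxidase PXDN, laminins, nidogens and basement membrane proteoglycans, interstitial collagens, the enzymes that hydroxylate and crosslink collagen, and fibronectin, fibrillins and matricellular proteins. Every one of the 41 names had a row and a single GENCODE release 29 gene. A549 is an established human lung adenocarcinoma line. The libraries came from 5 lines of these cells: wild type (WT), 1 whose label says ABCA3 knockout (KO), and 3 with the L101P, E292V or E690K variant of ABCA3. Each was sequenced untreated and after overnight transduction with a VSVG-coated lentiviral vector carrying ABCA3:GFP at a multiplicity of infection of 20, so there were 10 libraries and 1 library for each line and treatment. ABCA3 is the lipid transporter of lamellar bodies, the surfactant stores of alveolar type 2 cells, and the series title speaks of type 1 and type 2 variants. As background, L101P is known as a type 1 variant, which is misrouted in the cell, and E292V and E690K as type 2 variants, which reach their compartment with reduced function. How each edited line was derived and how many clones it holds is not given in the sources used here, so a difference between lines cannot be told apart from a difference between the cell populations that carry the genotypes.

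A basement membrane is a thin sheet of matrix under an epithelium. It rests on a network of laminin, in which each molecule is a trimer of an alpha, a beta and a gamma chain, and on a network of type IV collagen, whose trimers are joined end to end by bonds that peroxidasin, the product of PXDN, forms. Nidogens, perlecan (HSPG2) and agrin (AGRN) tie the networks together. In the lung this sheet lies between the alveolar epithelium and the capillaries. The COL4A1 and COL4A2 chains form the common collagen IV trimer, and the COL4A5 and COL4A6 chains occur together in a trimer of some epithelia and of smooth muscle. Interstitial collagens such as COL1A1 and COL5A1 form fibrils outside the basement membrane and are made in quantity by fibroblasts.

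Totals ran from 59430095 to 96811421 counts per library. ABCA3 and EGFP did not follow the labels throughout. ABCA3 stood at 356 and 602 CPM in WT, 600.2 and 26.0 in the KO-labelled line, 1151 and 922 in L101P, 965 and 1021 in E292V, and 900.2 and 994 in E690K, each pair of values being untreated and then transduced. EGFP stood at 69.7 and 151 CPM in WT, 37.9 and 0.0497 in the KO-labelled line, 1.01 and 36.9 in L101P, 20.2 and 66.0 in E292V, and 16.5 and 18.5 in E690K. In the KO-labelled pair both were lower in the library labelled transduced, which held the lowest ABCA3 of the 10. In L101P the transduced library had less ABCA3 but more EGFP than the untreated one. In WT, E292V and E690K both were higher in the transduced library, yet their untreated libraries held 16.5 to 69.7 CPM of EGFP, and untreated WT held more than transduced L101P, E292V or E690K. Untreated and transduced below are therefore as labelled, the knockout line is called KO-labelled, and what the pairs say of the vector rests on those labels. CPM here are counts brought to a common library size with TMM factors (trimmed mean of M-values). Markers of other cells were low: 5 of 5 endothelial markers and 5 of 7 fibroblast markers (PDGFRA, PDGFRB, DCN, COL3A1 and COL1A2) stayed under 1 CPM in the 10 libraries. The 7 fibroblast markers summed to 21.2 and 22.4 CPM in WT, 25.3 and 32.2 in E292V and 10.3 to 13.8 in the other lines. THY1 made up most of this sum, at 18.6 and 20.2 CPM in WT, 21.5 and 28.7 in E292V and 7.87 to 11.0 in the other lines. LUM did not follow it, at 1.95 and 1.68 CPM in WT and 2.57 and 2.04 in E292V. In the KO-labelled line LUM was at 2.88 and 3.98 CPM, in L101P at 1.57 and 1.98 and in E690K at 3.37 and 4.05. The alveolar type 2 markers SFTPA1, SFTPB, SFTPC, SFTPD and LAMP3 were under 1 CPM in the 10 libraries, while the epithelial list summed to 5364 to 11797 CPM.

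The starts of paired type IV collagen genes and of PXDN are shown first, since the results below turn on these genes and since COL4A1 with COL4A2, and COL4A5 with COL4A6, are transcribed in opposite directions from shared stretches of DNA. The sequences are from RefSeq (GRCh38.p14), which held a promoter entry for 36 of the 41 genes. Capitals mark the letters CCAAT and GGGCGG, searched on both strands with overlapping matches counted.
COL4A1 to COL4A2, chr13:110307158-110307283, plus strand: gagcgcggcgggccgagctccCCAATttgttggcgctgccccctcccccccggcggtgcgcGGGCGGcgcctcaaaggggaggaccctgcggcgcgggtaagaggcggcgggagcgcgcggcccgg
COL4A5 upstream, chrX:108439588-108439837, plus strand: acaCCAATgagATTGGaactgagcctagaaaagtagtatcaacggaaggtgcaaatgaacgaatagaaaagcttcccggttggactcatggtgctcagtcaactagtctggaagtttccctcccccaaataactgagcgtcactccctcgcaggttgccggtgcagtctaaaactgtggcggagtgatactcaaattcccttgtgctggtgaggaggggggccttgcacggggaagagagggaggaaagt
PXDN upstream, chr2:1744516-1744765, minus strand: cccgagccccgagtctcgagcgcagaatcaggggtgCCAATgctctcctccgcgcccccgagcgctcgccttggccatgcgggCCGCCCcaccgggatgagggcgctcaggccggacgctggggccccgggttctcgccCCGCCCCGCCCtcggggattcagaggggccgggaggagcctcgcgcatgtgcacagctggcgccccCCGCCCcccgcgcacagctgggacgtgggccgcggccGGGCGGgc
The first is the whole stretch of 126 bases between the RefSeq starts of COL4A1 and COL4A2, which are 127 bases apart. In the GENCODE annotation it lies inside COL4A2, which starts at 110305812, and spans the COL4A1 start at 110307233. The stretch of 126 bases held 1 CCAAT and 1 GGGCGG. Of the windows of that length before the starts of 35116 RefSeq entries, 21.1% held CCAAT and 34.6% GGGCGG. The COL4A5 window of 250 bases held 2 CCAAT, 1 on each strand, and no GGGCGG. Its far end lay 130 bases from the upstream start of COL4A6 on the other strand, which makes 380 bases between these starts. RefSeq has 2 starts for COL4A6, 1036 bases apart, and the counts do not separate them. The PXDN window held 1 CCAAT and 5 GGGCGG. It is upstream of the RefSeq start only. GENCODE places the PXDN start at 1744852 on the minus strand, so the whole window lies inside the gene as annotated there. Over all entries 32.0% of the windows of 250 bases held CCAAT and 42.6% GGGCGG. These are matches of letters and no evidence of a bound factor.

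Per kilobase of exon, the levels of the 41 genes spread over several orders of magnitude. TGFBI, a secreted protein that binds collagen and integrins, led with a median of 466 CPM per kb. LAMA5 (74.0), LAMB1 (73.8), AGRN (66.0), LOXL2 (57.3) and LAMC1 (48.3) followed, so that the chains LAMA5, LAMB1 and LAMC1, which assemble into 1 trimer, were all among the 6 highest. COL4A2 (32.7 CPM per kb) and COL4A1 (22.5) stood well above COL4A6 (6.15), COL4A5 (4.56), COL4A4 (0.600) and COL4A3 (0.267). PXDN (1.05) and SPARC (0.639) had low medians. The median over the 10 libraries was at least 10 CPM for 29 genes, from 1 to 10 for 7 and under 1 for 5. LAMA1, with 0 to 10 counts, and LAMA4, with 0 to 20, were at 0 in 6 and 5 libraries. A level of 3 counts corresponds to 0.0310 to 0.0505 CPM, and these 2 alpha chains were near or under that level in most libraries.

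**Figure D1:**
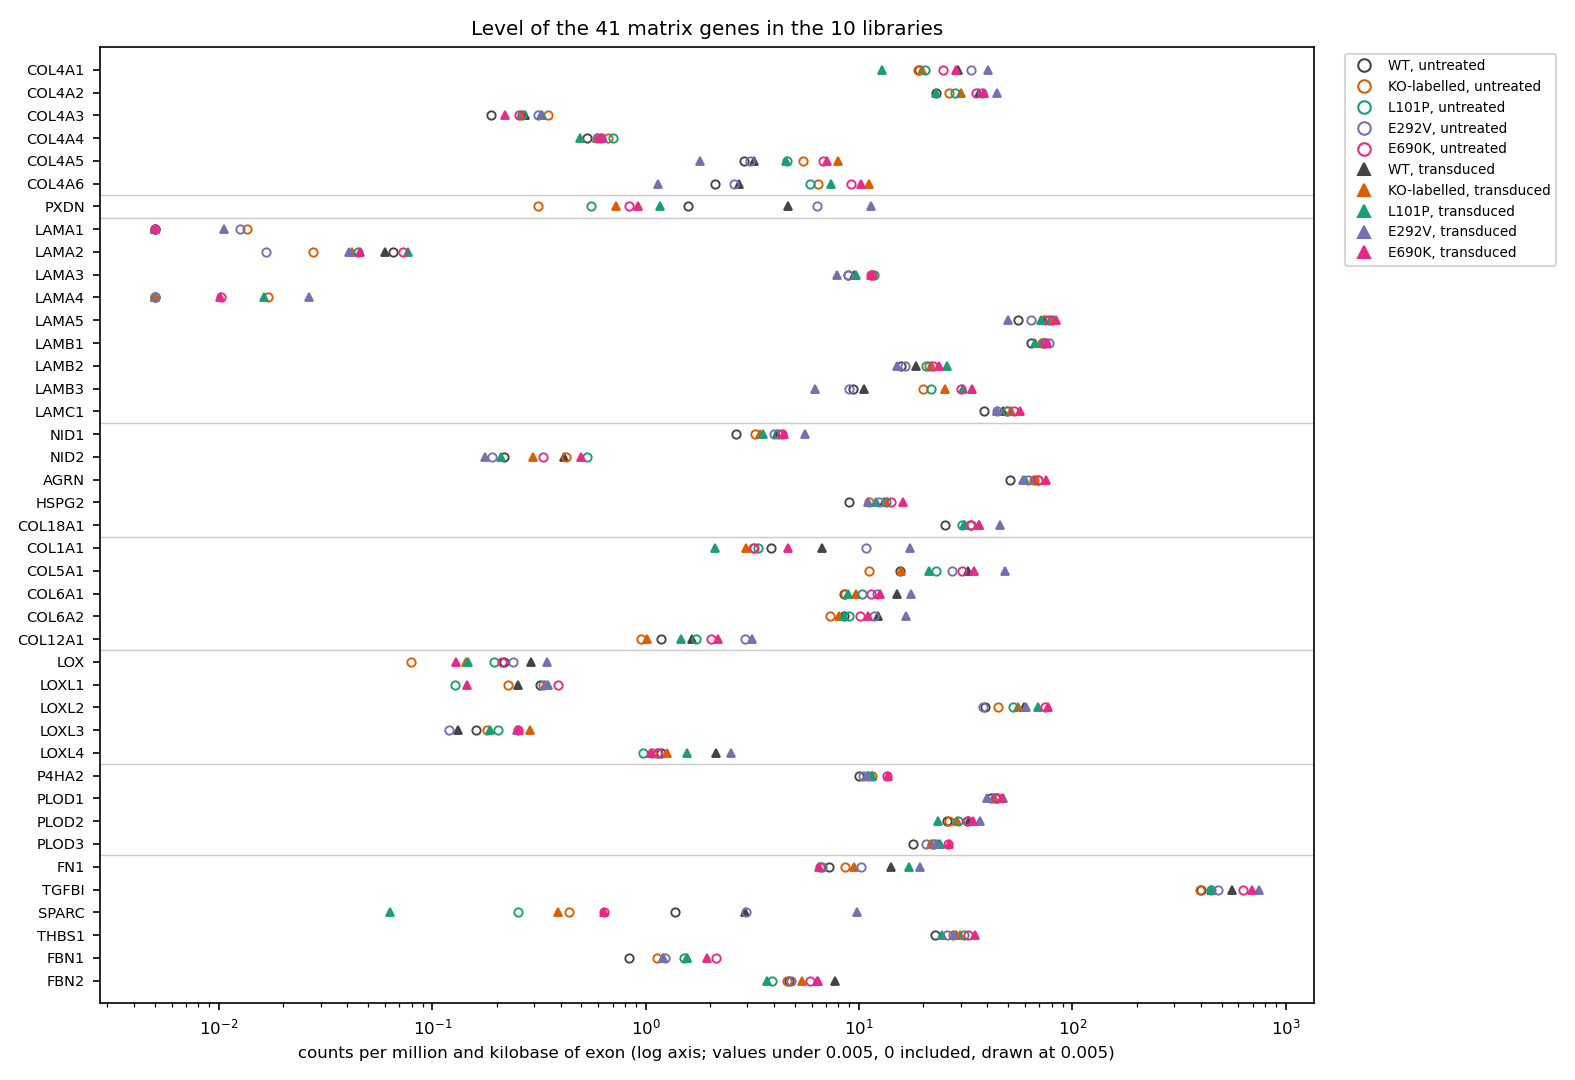
Level of each of the 41 genes in the 10 libraries, in CPM per kilobase of exon on a log axis. Open circles are untreated and filled triangles transduced libraries, colours are the 5 lines, and values under 0.005 are drawn at 0.005. The 10 points lie within 2-fold for 17 genes, while those of SPARC, PXDN, COL4A6, COL1A1 and LAMB3 spread over more than 5-fold.

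A small number of genes spanned far wider ranges than the rest. The highest library was less than 2-fold above the lowest for 17 genes, among them PLOD1 (1.19-fold) and LAMB1 (1.21-fold). It was more than 5-fold above for SPARC (155-fold), PXDN (36.5-fold), COL4A6 (9.79-fold), COL1A1 (8.23-fold) and LAMB3 (5.45-fold). SPARC, PXDN and COL1A1 were highest in the transduced E292V library, and COL4A6 and LAMB3 were lowest there. Of the 39 genes with a count in every library, 16 were highest in the transduced E292V library and 9 in the transduced E690K library, while 12 were lowest in untreated WT. The same shares over all genes were not counted, so these numbers describe the libraries and are not a result about the matrix genes.

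Whether the lines differed was tested in a single model with additive terms for line and vector. The edgeR quasi-likelihood test was used, with Benjamini-Hochberg adjustment over 17978 genes and a threshold of 0.05; all adjusted p-values below are from it unless another tool is named, and the value after ± is the standard error of the log2 fold change. Each line enters with its untreated and its transduced library (n = 2), and the error comes from how far the 10 libraries depart from additive terms (4 residual degrees of freedom). All 41 genes passed the filter on low counts, LAMA1 and LAMA4 with counts in only 4 and 5 libraries. A difference of any kind among the 5 lines passed the test for 17 of the 41 genes, where 13% of all genes tested did. These were PXDN, SPARC, LAMA3, LAMB2, LAMB3, COL4A1, COL4A2, COL4A5, COL4A6, COL1A1, COL5A1, COL6A2, COL12A1, LOXL2, TGFBI, FBN1 and FBN2. Without the L101P pair 27 passed (21.0% of all genes), and 12 passed without the E292V pair (5.30%) or the E690K pair (7.39%). LOXL2 (0.122), TGFBI (0.118), FBN1 (0.118) and FBN2 (0.0873) did not pass without E690K (adjusted p in parentheses), nor COL1A1 (0.152) without E292V, nor FBN2 (0.117) without L101P. The 4 contrasts of a line with WT share the 2 WT libraries, so their results are not independent of each other.

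The KO-labelled line differed from WT in 5 of the 41 genes, where 1.8% of all genes tested passed. LAMB3, COL4A5 and COL4A6 were higher (0.807% of all genes) and PXDN and SPARC lower (0.99%). L101P differed from WT in 6 genes (3.94% of all genes): LAMB3, LAMB2 and COL4A6 were higher (2.33%) and PXDN, FBN2 and SPARC lower (1.61%). E292V differed in 3 genes (1.05% of all genes), and PXDN, COL12A1 and COL1A1 were all higher, where 0.295% of all genes were called higher and 0.756% lower. E690K differed in 12 genes (5.38% of all genes), of which 11 were higher (3.05%) and PXDN was lower (2.33%). The median log2 fold change over the 41 genes was 0.06 in the KO-labelled line, 0.12 in L101P, 0.20 in E292V and 0.32 in E690K. Over all genes it lay between -0.02 and 0.00. Without LAMA1 and LAMA4, whose fitted values rest on counts of 0, the 4 medians were 0.05, 0.12, 0.14 and 0.32. Among the 39 genes with a count in every library, 26 were higher in untreated KO-labelled than in untreated WT cells and 13 in the transduced libraries. In L101P these counts were 30 and 15, in E292V 33 and 22, and in E690K 33 and 26. The median log2 ratio to WT over these genes was 0.21 in the untreated and -0.11 in the transduced KO-labelled libraries, 0.32 and -0.15 in L101P, 0.25 and 0.10 in E292V, and 0.43 and 0.12 in E690K, so that it changed sign in the KO-labelled line and L101P. Over all 16355 tested genes with a count in every library, 47.9% to 49.8% were higher than WT in these 8 ratios, with medians from -0.01 to 0.00. Without the L101P pair in the fit, which leaves 3 residual degrees of freedom, 11 genes were called in the KO-labelled line (6.34% of all genes), 10 in E292V (3.89%) and 21 in E690K (11.2%). Without the E690K pair, 2 were called in the KO-labelled line (0.827% of all genes) and 3 in L101P (2.06%), and without the KO-labelled pair 7 were called in E690K (3.60%). With the labels of the KO-labelled pair exchanged, 3 were called in L101P (2.04% of all genes) and 5 in E690K (3.33%). The genes then lost, beside PXDN, were LAMB2 (adjusted p = 0.0575) and FBN2 (0.0724) in L101P. In E690K they were LAMC1 (adjusted p = 0.0785), P4HA2 (0.0533), PLOD3 (0.0709), COL12A1 (0.0597), LOXL2 (0.0814) and TGFBI (0.136).

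**Figure D2:**
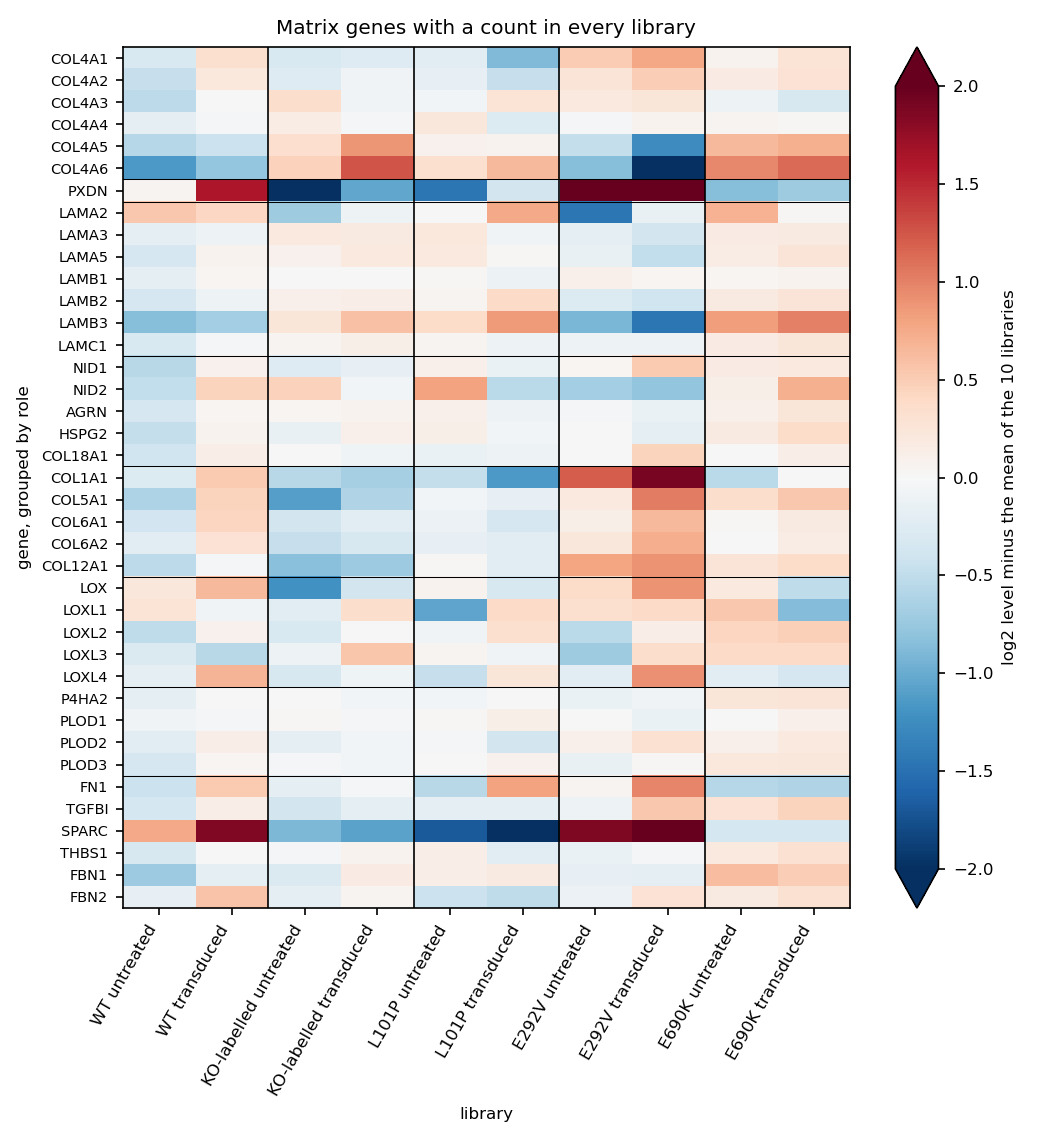
Log2 level of the 39 genes with a count in every library, relative to each gene's mean over the 10 libraries, with genes in rows by role and libraries in columns by line. PXDN, SPARC and COL1A1 are high in both E292V libraries; COL4A5, COL4A6 and LAMB3 are low in both WT and both E292V libraries, and the first column (untreated WT) is below the mean in most rows.

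Among the type IV collagens, the COL4A5 and COL4A6 pair spanned 4.43-fold and 9.79-fold over the libraries and COL4A1 and COL4A2 3.16-fold and 1.94-fold. COL4A6 (chromosome X, 108155607 to 108439497, minus strand, GRCh38 as annotated by GENCODE release 29) stood at 14.5 and 18.9 CPM in WT, 44.2 and 76.4 in the KO-labelled line, 40.3 and 50.6 in L101P, 17.9 and 7.81 in E292V, and 62.8 and 70.5 in E690K. Both WT and both E292V libraries lay below all 6 libraries of the other lines. The log2 fold change against WT was 1.84 ± 0.31 (adjusted p = 0.0119) in the KO-labelled line, 1.45 ± 0.31 (adjusted p = 0.0241) in L101P and 2.00 ± 0.31 (adjusted p = 0.00317) in E690K. In E292V it was -0.36 ± 0.32 (adjusted p = 0.799). Its neighbour COL4A5 (chromosome X, 108439844 to 108697545, plus strand) stood at 22.6 and 25.1 CPM in WT, 42.5 and 62.3 in the KO-labelled line, 35.7 and 35.4 in L101P, 24.1 and 14.1 in E292V, and 53.0 and 55.0 in E690K, with the same libraries lowest and no overlap. COL4A5 was higher than WT in the KO-labelled line, by 1.14 ± 0.21 (adjusted p = 0.0189) on the log2 scale, and in E690K, by 1.18 ± 0.21 (adjusted p = 0.00670). The L101P value of 0.58 ± 0.21 (adjusted p = 0.161) missed the threshold. The counts of COL4A6 over those of COL4A5, a ratio that also holds the lengths of the genes, were 0.556 to 0.752 in WT and E292V and 1.04 to 1.43 in the other 3 lines. Without the E690K pair the KO-labelled calls were lost (adjusted p = 0.0518 for COL4A6 and 0.0718 for COL4A5), as was that of COL4A6 in L101P (0.0694), which was also lost with DESeq2 (adjusted p = 0.0538).

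COL4A1 (chromosome 13, 110148963 to 110307233, minus strand) stood at 144 and 219.9 CPM in WT, 143 and 149 in the KO-labelled line, 153 and 96.3 in L101P, 253 and 304 in E292V, and 186 and 214 in E690K. COL4A2 (chromosome 13, 110305812 to 110513209, plus strand) stood at 298 and 473 CPM in WT, 343 and 389.7 in the KO-labelled line, 364 and 297 in L101P, 488 and 576 in E292V, and 459 and 502 in E690K. Both were highest in transduced E292V and lowest in transduced L101P. No contrast of a line with WT passed for either gene (adjusted p from 0.184 to 0.913), but the test among the 5 lines passed for COL4A1 (adjusted p = 0.0118) and COL4A2 (0.0337). That result was lost without the E292V pair, at adjusted p = 0.205 and 0.222, for COL4A2 also without the KO-labelled pair (0.0642) or the E690K pair (0.101), and for both with DESeq2 (adjusted p = 0.0868 and 0.151). COL4A2 counts were 1.90 to 3.09 times those of COL4A1, lowest in E292V and highest in transduced L101P. COL4A3 (1.53 to 2.83 CPM) and COL4A4 (4.95 to 7.02 CPM), the chains of the kidney and alveolar trimer with COL4A5, passed no contrast.

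**Figure D3:**
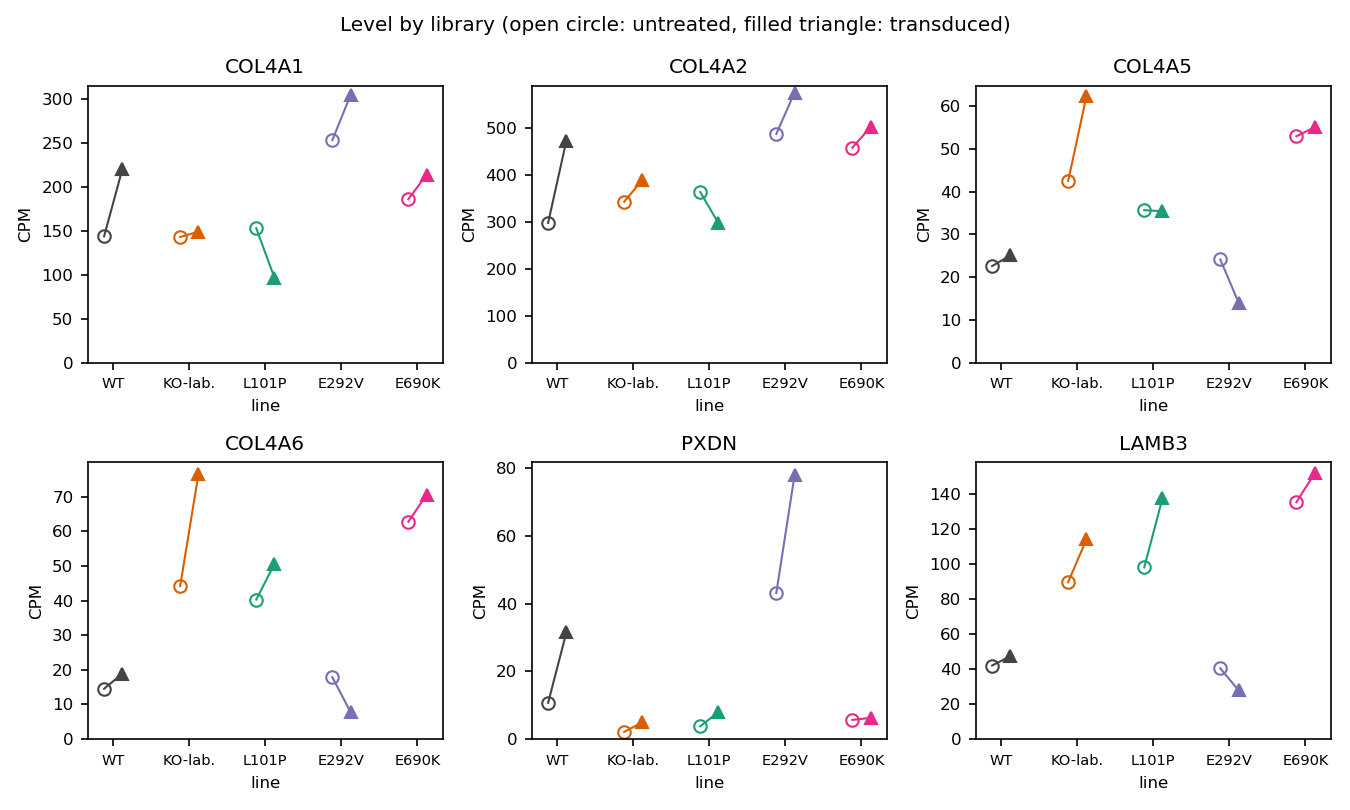
Level in CPM of COL4A1, COL4A2, COL4A5, COL4A6, PXDN and LAMB3 by line, with a line from the untreated (open circle) to the transduced library (filled triangle) and each axis starting at 0. COL4A5, COL4A6 and LAMB3 are low in WT and E292V and higher in the other 3 lines, whereas PXDN is highest in E292V.

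PXDN (chromosome 2, 1631887 to 1744852, minus strand) was the only one of the 41 genes to pass all 4 contrasts with WT. It stood at 10.7 and 31.5 CPM in WT, 2.13 and 4.97 in the KO-labelled line, 3.79 and 7.97 in L101P, 43.1 and 77.9 in E292V, and 5.66 and 6.28 in E690K. The E292V libraries were the 2 highest, the WT libraries came next, and the 6 libraries of the other lines, at 2.13 to 7.97 CPM, lay below both WT libraries. The log2 fold change against WT was 1.62 ± 0.22 (adjusted p = 0.00884) in E292V, -2.51 ± 0.25 (adjusted p = 3.98e-04) in the KO-labelled line, -1.77 ± 0.24 (adjusted p = 0.00216) in L101P and -1.63 ± 0.24 (adjusted p = 0.00185) in E690K. The transduced library was the higher of the pair in each of the 5 lines. The lowest level rested on 160 counts (untreated KO-labelled cells), and a 95% Wilson interval on read pairs there runs from 1.71 to 2.66 CPM of the unscaled total, which covers counting error only. PXDN counts were 0.0149 times those of COL4A1 in that library and 0.256 times in transduced E292V. With untreated and transduced exchanged in the KO-labelled pair PXDN stayed past the threshold in the KO-labelled line but not in L101P (adjusted p = 0.0626), E292V (0.162) or E690K (0.0597). The log2 fold changes then were -1.79, 1.58 and -1.70.

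Of the 9 laminin genes, LAMB3 moved most. It encodes a beta chain that assembles with LAMA3 in the laminin under hemidesmosomes. LAMB3 (chromosome 1, 209614870 to 209652466, minus strand) stood at 42.0 and 47.3 CPM in WT, 89.6 and 114 in the KO-labelled line, 97.9 and 137 in L101P, 40.4 and 27.8 in E292V, and 135 and 152 in E690K. The WT and E292V libraries were the 4 lowest, without overlap with the others. It was higher than WT by 1.18 ± 0.17 (adjusted p = 0.00578) on the log2 scale in the KO-labelled line, 1.39 ± 0.17 (adjusted p = 0.00168) in L101P and 1.68 ± 0.18 (adjusted p = 2.73e-04) in E690K, and each of these calls held in all 8 alternative analyses run for it. In E292V the value was -0.38 ± 0.17 (adjusted p = 0.488). Its partner LAMA3 stood at 97.7 and 104 CPM in WT, 128 and 126 in the KO-labelled line, 129 and 107 in L101P, 98.0 and 86.9 in E292V, and 125 and 126 in E690K, with the WT and E292V libraries below the other 6. LAMA3 passed the test among the 5 lines (adjusted p = 0.0110) but no contrast with WT, and without the E292V pair it did not pass (adjusted p = 0.130).

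LAMB2, a beta chain of many adult basement membranes, stood at 90.5 and 106 CPM in WT, 122 and 125 in the KO-labelled line, 118 and 149 in L101P, 94.9 and 86.6 in E292V, and 129 and 137 in E690K. The 4 lowest libraries of LAMB2 were also those of WT and E292V. The share of all genes with this split, seen above for COL4A6, COL4A5, LAMB3 and LAMA3, was not counted. Of the 5 epithelial markers, outside the matrix, KRT19, KRT8 and KRT18 also had it, and EPCAM and CDH1 did not. KRT19 was at 61.6 to 138 CPM in WT and E292V and 203 to 473 in the other lines. EPCAM was at 10.4 CPM in untreated L101P and 15.4 in untreated E292V. CDH1 was at 25.0 and 21.8 CPM in E690K and 27.5 and 30.3 in WT. LAMB2 was higher than WT in L101P, by 0.44 ± 0.10 (adjusted p = 0.0281), and in E690K, by 0.43 ± 0.10 (adjusted p = 0.0241) on the log2 scale. The L101P call was lost without the KO-labelled pair (adjusted p = 0.0564) and without the E690K pair (0.0666). The gamma chain LAMC1 stood at 305 and 372 CPM in WT, 391 and 407 in the KO-labelled line, 391 and 350.3 in L101P, 351 and 351 in E292V, and 419.8 and 447 in E690K. Untreated WT was the lowest library, and LAMC1 was higher than WT in E690K by 0.36 ± 0.09 (adjusted p = 0.0427), a call lost without the KO-labelled pair (0.0791) or the E292V pair (0.0560). LAMA5, the laminin gene with the highest level per kilobase, stood at 637 and 843 CPM in WT, 848 and 917 in the KO-labelled line, 922 and 813 in L101P, 728 and 573 in E292V, and 889.5 and 961 in E690K and passed no contrast. LAMB1 ranged from 397 to 481 CPM and LAMA2 from 0.160 to 0.744 CPM, also without a call.

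Transduced E292V was the highest library of all 5 interstitial collagens, and of 16 of the 39 genes with a count in every library. The same share over all genes was not counted. COL1A1 (chromosome 17, 50183289 to 50201632, minus strand), a chain of type I collagen, stood at 26.0 and 44.9 CPM in WT, 21.4 and 19.8 in the KO-labelled line, 22.5 and 14.2 in L101P, 72.3 and 116 in E292V, and 21.6 and 31.1 in E690K. Both E292V libraries were above the other 8. COL1A1 was higher in E292V than in WT by 1.42 ± 0.26 (adjusted p = 0.0214) on the log2 scale, which without the E690K pair did not pass (adjusted p = 0.0719). COL12A1, a collagen that binds along fibrils, stood at 14.3 and 20.0 CPM in WT, 11.5 and 12.3 in the KO-labelled line, 20.9 and 17.7 in L101P, 35.4 and 38.2 in E292V, and 24.5 and 26.5 in E690K. The E292V libraries were again the 2 highest, and E690K held the next 2. Its log2 fold change was 1.11 ± 0.14 (adjusted p = 0.00631) in E292V, a call kept in all 8 alternatives, and 0.58 ± 0.14 (adjusted p = 0.0309) in E690K, lost without the KO-labelled pair (0.0531). COL1A2, the partner chain of COL1A1 in type I collagen, stood at 0.271 and 0.0208 CPM in E292V and at 0 in the other lines. These E292V values rest on 22 and 2 counts, and the transduced one is under the level of 3 counts. The fibroblast marker sum given above, most of it THY1, was also highest in E292V. The marker LUM was not, at 2.57 and 2.04 CPM in E292V and 3.37 and 4.05 in E690K. The part of other cells in these levels was not tested.

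COL5A1, a chain of the collagen that nucleates fibrils, stood at 132 and 276 CPM in WT, 95.2 and 134 in the KO-labelled line, 196 and 181 in L101P, 233 and 414 in E292V, and 259.8 and 294 in E690K. The KO-labelled libraries were 2 of the 3 lowest. COL5A1 passed the test among the 5 lines (adjusted p = 0.00301), which was lost without the KO-labelled pair (0.102), and it passed no contrast with WT. COL6A2, a chain of the beaded-filament collagen, stood at 37.6 and 54.1 CPM in WT, 32.1 and 35.4 in the KO-labelled line, 39.3 and 37.5 in L101P, 51.5 and 72.8 in E292V, and 44.4 and 48.6 in E690K. Its transduced E292V library was the highest, and it passed the test among the 5 lines and no contrast with WT (adjusted p = 0.00518 among the lines, 0.120 without the E292V pair). Its partner COL6A1 ranged from 36.1 to 74.4 CPM with no call.

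SPARC, a collagen-binding matricellular protein, had the widest range of the 41 genes. SPARC (chromosome 5, 151661096 to 151687165, minus strand) stood at 5.08 and 10.9 CPM in WT, 1.63 and 1.44 in the KO-labelled line, 0.938 and 0.234 in L101P, 11.0 and 36.3 in E292V, and 2.37 and 2.37 in E690K. All 6 libraries of the KO-labelled, L101P and E690K lines lay below both WT libraries, and both E292V libraries lay above them, the untreated one by only 11.0 against 10.9 CPM. The lowest value, in transduced L101P, rested on 22 counts, with an interval of 0.127 to 0.407 CPM of the unscaled total. The log2 fold change against WT was -3.79 ± 0.60 (adjusted p = 0.00591) in L101P and -2.30 ± 0.52 (adjusted p = 0.0478) in the KO-labelled line; in E690K the value was -1.68 ± 0.50 (adjusted p = 0.0784) and in E292V 1.53 ± 0.47 (adjusted p = 0.207). The KO-labelled call lay close to the threshold and was lost without the E690K pair (adjusted p = 0.113), with DESeq2 (adjusted p = 0.119) and in 2 further alternatives. The fibroblast marker sum, most of it THY1, was also lower in these 3 lines (10.3 to 13.8 CPM) than in WT and E292V (21.2 to 32.2 CPM). The marker LUM was higher in the KO-labelled line and E690K than in WT. The part of other cells in the SPARC result was not tested. An annotated gene on the other strand, CLMAT3, overlaps an exon of SPARC, and strand use in counting is not given in the sources used here.

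TGFBI stood at 1157 and 1614 CPM in WT, 1145 and 1302 in the KO-labelled line, 1285 and 1288 in L101P, 1378 and 2144 in E292V, and 1806 and 2003 in E690K. It was higher in E690K than in WT, by 0.48 ± 0.12 (adjusted p = 0.0431) on the log2 scale, and this was lost without the KO-labelled pair (adjusted p = 0.0718) and with its labels exchanged (0.136). FBN1, the main microfibril protein, stood at 12.9 and 18.5 CPM in WT, 17.3 and 23.9 in the KO-labelled line, 23.2 and 23.9 in L101P, 19.0 and 18.5 in E292V, and 32.7 and 29.8 in E690K. Both E690K libraries were above the other 8, and FBN1 was higher in E690K than in WT by 1.01 ± 0.15 (adjusted p = 0.00263), in all 8 alternatives as well. FBN2, the fibrillin of developing tissue, stood at 56.3 and 93.2 CPM in WT, 55.5 and 65.1 in the KO-labelled line, 46.9 and 44.3 in L101P, 57.6 and 76.7 in E292V, and 71.0 and 77.5 in E690K. The 2 L101P libraries were the lowest, and FBN2 was lower in L101P than in WT, with a log2 fold change of -0.68 ± 0.14 (adjusted p = 0.0231), a call lost without the E690K pair (0.0608). FN1, fibronectin, ranged from 58.9 to 175 CPM and THBS1, thrombospondin, from 177 to 273 CPM, and neither passed a contrast.

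The nidogens and basement membrane proteoglycans passed no test. AGRN, the highest per kilobase of them, stood at 377 and 487 CPM in WT, 488 and 494 in the KO-labelled line, 509.7 and 443 in L101P, 458 and 432 in E292V, and 508 and 558 in E690K, with untreated WT lowest. HSPG2 ranged from 128 to 229 CPM, COL18A1 from 173 to 311 CPM, NID1 from 15.5 to 32.6 CPM and NID2 from 0.895 to 2.68 CPM. Untreated WT was also the lowest library of HSPG2, COL18A1 and NID1. Of the 5 lysyl oxidases, which crosslink collagen and elastin, only LOXL2 reached 10 CPM. LOXL2 stood at 138 and 210.0 CPM in WT, 159.5 and 197 in the KO-labelled line, 187 and 245 in L101P, 135 and 216 in E292V, and 264 and 273 in E690K, and it was higher in E690K than in WT by 0.66 ± 0.12 (adjusted p = 0.00732) on the log2 scale. With the labels of the KO-labelled pair exchanged this was lost (adjusted p = 0.0814). LOXL4 ranged from 3.55 to 9.13 CPM, and LOX, LOXL1 and LOXL3 had medians of 1.05, 0.765 and 0.802 CPM. These 4 genes passed no contrast.

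The collagen hydroxylases act in the endoplasmic reticulum, where P4HA2 modifies proline and the PLOD enzymes lysine. They varied little. P4HA2 stood at 37.1 and 42.6 CPM in WT, 42.8 and 40.9 in the KO-labelled line, 40.7 and 42.7 in L101P, 38.8 and 40.5 in E292V, and 50.0 and 50.7 in E690K, with both E690K libraries above the other 8. PLOD3 stood at 52.5 and 68.2 CPM in WT, 64.0 and 63.3 in the KO-labelled line, 65.4 and 70.1 in L101P, 59.9 and 67.2 in E292V, and 76.2 and 77.5 in E690K, also highest in E690K. P4HA2 was higher in E690K than in WT by 0.34 ± 0.09 (adjusted p = 0.0427) and PLOD3 by 0.36 ± 0.10 (adjusted p = 0.0499) on the log2 scale. Neither call held without the KO-labelled pair (0.0586 and 0.0653) or the E292V pair (0.0555 and 0.0613). PLOD1, the highest of the 4 per kilobase, stood at 122 and 126 CPM in WT, 129.7 and 126 in the KO-labelled line, 131 and 139 in L101P, 127 and 117 in E292V, and 129 and 138 in E690K and PLOD2 ranged from 104 to 164 CPM. Neither passed a contrast.

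**Figure D4:**
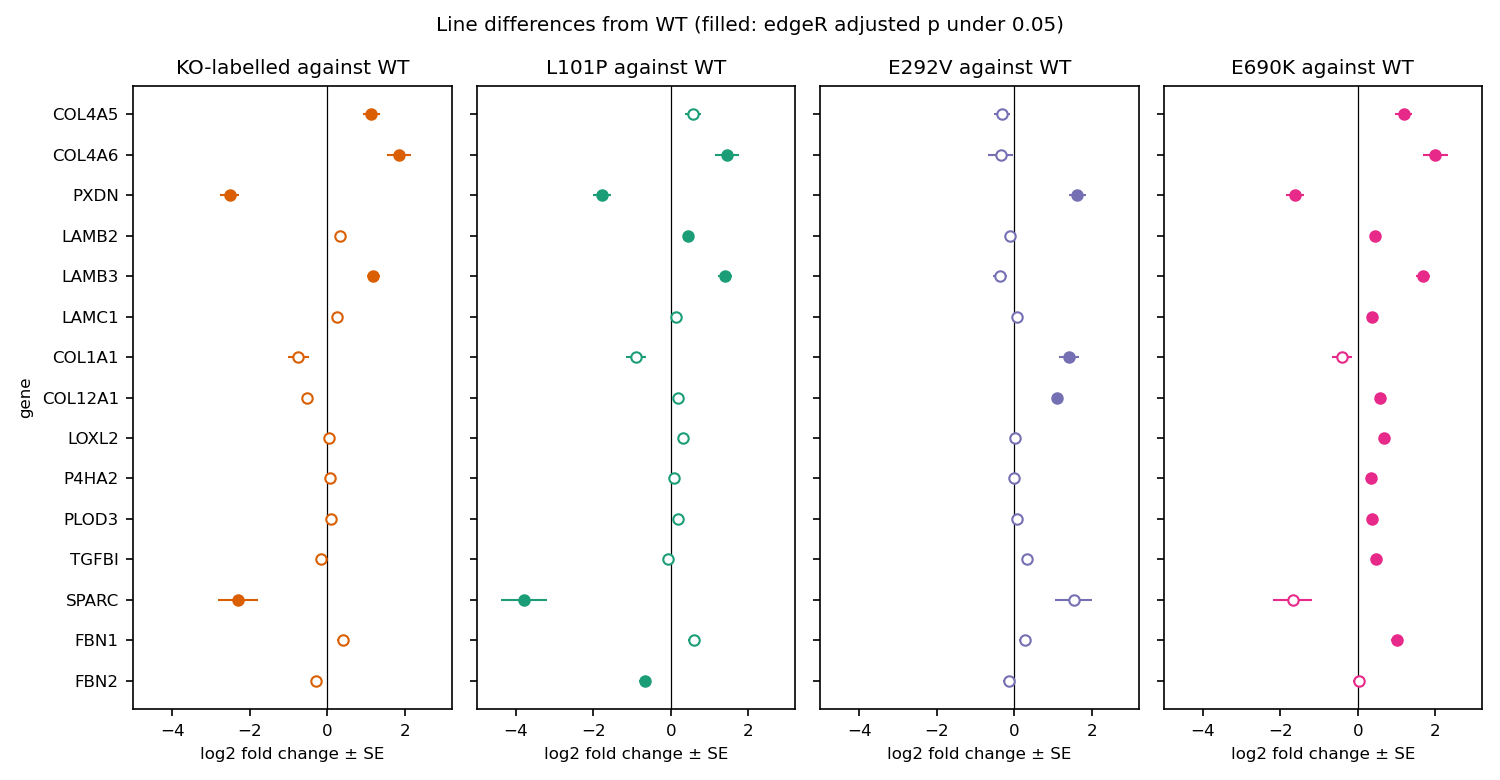
Log2 fold change against WT, with its standard error, for the 15 genes called in at least 1 contrast with WT, in 1 panel for each line. Filled points passed the edgeR test at an adjusted p of 0.05. PXDN is to the right of 0 in E292V and to the left in the other 3 lines, and COL4A6 and LAMB3 are to the right in those 3 lines.

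L101P was also compared with the mean of E292V and E690K, a comparison of the type 1 with the type 2 variants. L101P is 1 line and the other side 2 lines, so the type cannot be told apart from the line. Of the 41 genes 10 passed, where 5.79% of all genes did. LAMB3 was higher in L101P (3.75% of all genes) and PXDN, SPARC, COL1A1, COL4A1, COL12A1, FBN2, COL4A2, TGFBI and COL6A2 were lower (2.04%). The log2 fold change was 0.74 ± 0.15 (adjusted p = 0.0119) for LAMB3 and -1.77 ± 0.22 (adjusted p = 0.00139) for PXDN. For SPARC it was -3.71 ± 0.57 (adjusted p = 0.00331). Among the collagens, it was -1.40 ± 0.24 (adjusted p = 0.00613) for COL1A1, -0.91 ± 0.18 (adjusted p = 0.0128) for COL4A1, -0.66 ± 0.12 (adjusted p = 0.00909) for COL12A1, -0.60 ± 0.14 (adjusted p = 0.0232) for COL4A2 and -0.47 ± 0.11 (adjusted p = 0.0323) for COL6A2. For TGFBI it was -0.49 ± 0.11 (adjusted p = 0.0211) and for FBN2 -0.62 ± 0.13 (adjusted p = 0.0148). The lines on the other side were not alike: PXDN was 43.1 and 77.9 CPM in E292V but 5.66 and 6.28 in E690K, against 3.79 and 7.97 in L101P, and LAMB3 was 40.4 and 27.8 CPM in E292V, 135 and 152 in E690K and 97.9 and 137 in L101P. With the labels of the KO-labelled pair exchanged, TGFBI (adjusted p = 0.0732), COL4A2 (0.0507) and COL6A2 (0.0745) did not pass. The COL6A2 call was also lost without the KO-labelled pair (adjusted p = 0.0556), and that of COL4A2 with DESeq2 (adjusted p = 0.0627). The median over the 41 genes was -0.11.

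The vector effect, with the 5 lines as replicates and the line as a block, passed for 0 of the 41 genes, and for 0% of all genes tested, in edgeR. At an unadjusted p under 0.05 there were 10 of the 41 and 1236 of the 17978 genes, and DESeq2 called 3 of the 41, PXDN, TGFBI and LOXL2. PXDN had the smallest p of the 41. Its log2 ratio of transduced to untreated was 1.56 in WT, 1.22 in the KO-labelled pair as labelled, 1.07 in L101P, 0.85 in E292V and 0.15 in E690K, and the fitted effect was 0.98 ± 0.15 (adjusted p = 0.109). LOXL2 also lay above 0 in the 5 pairs, at 0.60, 0.30, 0.39, 0.67 and 0.05 in the same order, with a fitted effect of 0.40 ± 0.08 (adjusted p = 0.129). FN1 was at 0.96, 0.15, 1.36, 0.92 and -0.02, with 0.68 ± 0.16 (adjusted p = 0.240). The count moved when the L101P pair was left out: without it 11 of the 41 genes were called, all higher in transduced libraries, where 0.75% of all genes were called. These were PXDN, FN1, FBN2, TGFBI, LOXL2, COL5A1, COL4A1, COL4A2, COL1A1, COL6A1 and COL6A2, with 0.96 ± 0.14 (adjusted p = 0.00409) for PXDN, 0.65 ± 0.09 (adjusted p = 0.00259) for COL5A1 and 0.29 ± 0.07 (adjusted p = 0.0483) for COL4A1. In the L101P pair COL4A1 stood at 153 and 96.3 CPM and COL1A1 at 22.5 and 14.2, while PXDN, FN1 and LOXL2 were higher in its transduced library. Why the count moved was not tested. With the labels of the KO-labelled pair exchanged 0 were called and the PXDN effect was 0.57 ± 0.28 (adjusted p = 1.000). Without the E690K pair only PXDN was called.

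Within each line the change with the vector has no replicate and no test. A mean of 10 CPM or more was reached by 30 of the 41 genes, and by 9459 genes in all. In WT all 30 were higher in the transduced library, with a median log2 ratio of 0.48, where 51.2% of all 9459 genes were higher and the standard deviation over those genes was 0.185. PXDN and COL5A1 were past 2-fold, as were 0.0846% of all genes. In the KO-labelled pair 24 of 30 were higher in the library labelled transduced (median 0.12), in E292V 18 (0.14) and in E690K 28 (0.11). In L101P 12 of 30 were higher (median -0.10). Over all 9459 genes 53.0% were higher in the KO-labelled pair, 52.7% in E292V, 51.9% in E690K and 53.7% in L101P. The standard deviations there were 0.184, 0.188, 0.113 and 0.249 in the same order. Past 2-fold were PXDN in the KO-labelled pair (0.0423% of all genes higher and 0.0317% lower), PXDN and FN1 in L101P (0.476% higher and 0.0634% lower) and, in the other direction, COL4A6 in E292V (0.0423% lower and 0.159% higher). E690K had 0 of the 30 past 2-fold and 0% of all genes. Whether the pairs differed from one another was not tested.

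**Figure D5:**
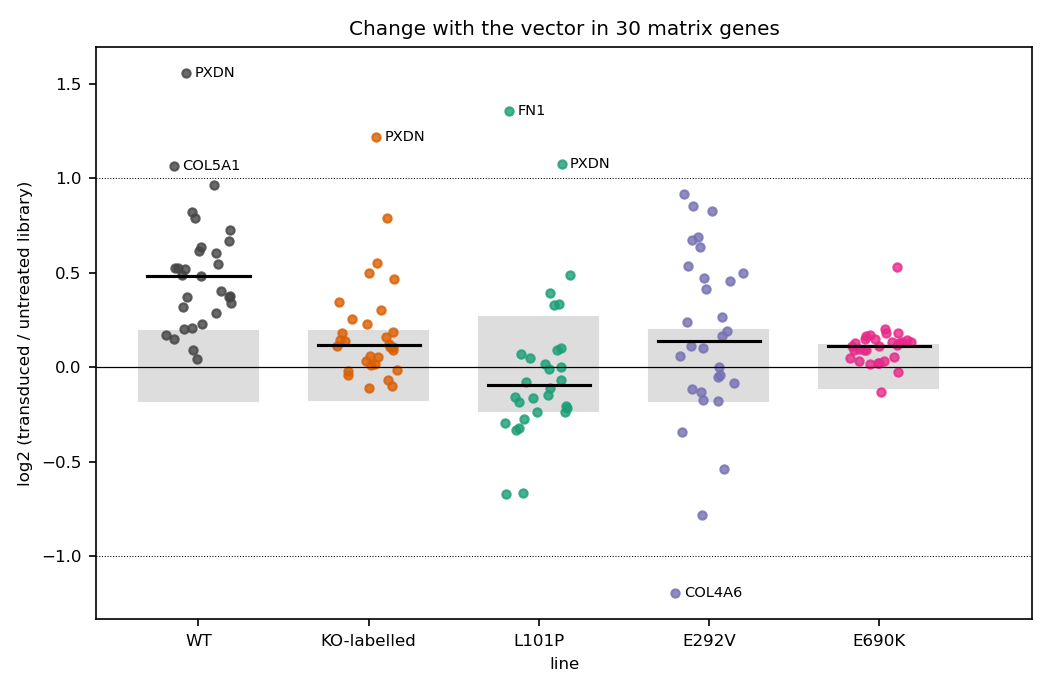
Log2 ratio of the transduced to the untreated library for the 30 genes whose mean reached 10 CPM, by line; the bar is their median and the grey band is the median ± 1 SD over all 9459 such genes. All points of WT are above 0, those of L101P lie on both sides, and the named genes are past 2-fold (dotted lines).

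Other genes of the same matrix, from lists of receptors, proteases and further components, were counted by list. TINAGL1, a secreted protein of basement membranes, stood at 8.87 and 21.0 CPM in WT, 0.640 and 0.472 in the KO-labelled line, 0.101 and 0.978 in L101P, 9.28 and 37.8 in E292V, and 0.856 and 1.14 in E690K. The 6 libraries of the KO-labelled, L101P and E690K lines lay below those of WT and E292V. They held 48 and 38, 6 and 92, and 64 and 87 counts in that order of lines. TINAGL1 was lower than WT in these 3 lines: the log2 fold change was -4.62 ± 0.49 (adjusted p = 7.85e-04) in the KO-labelled line, -4.81 ± 0.49 (adjusted p = 7.65e-04) in L101P and -3.81 ± 0.46 (adjusted p = 5.64e-04) in E690K. Of 20 further basement membrane and collagen genes 16 were tested: 1 was called higher and 3 lower in the KO-labelled line, 2 and 3 in L101P, 1 and 0 in E292V and 3 and 3 in E690K. The 1 called in E292V was FRAS1, which links epithelium to the underlying matrix, at 1.12 ± 0.18 (adjusted p = 0.0129), and it was lower in L101P, at -1.11 ± 0.19 (adjusted p = 0.00804); FRAS1, ITGA6, ITGB4, COL17A1 and TIMP1 were chosen after their values were seen.

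All 19 receptors for the matrix were tested. This and the other lists are read against 0.807% of all genes called higher and 0.99% lower in the KO-labelled line, 2.33% and 1.61% in L101P, 0.295% and 0.756% in E292V, and 3.05% and 2.33% in E690K. In E690K 6 were higher and 0 lower, in L101P 5 and 1, in the KO-labelled line 2 and 1, and in E292V 0 of either. ITGA3, a laminin-binding integrin chain, was higher in E690K (0.72 ± 0.08, adjusted p = 2.80e-04) and L101P (0.42 ± 0.08, adjusted p = 0.0117), and the syndecan SDC4 was higher in E690K (0.69 ± 0.08, adjusted p = 5.11e-04). ITGA6 and ITGB4 form the integrin of hemidesmosomes. ITGA6 was higher in the KO-labelled line (0.71 ± 0.11, adjusted p = 0.00641), L101P (0.69 ± 0.11, adjusted p = 0.00526) and E690K (0.88 ± 0.11, adjusted p = 6.31e-04). ITGB4 was also higher in these 3 lines, by 0.63 ± 0.14 (adjusted p = 0.0454), 1.06 ± 0.14 (adjusted p = 0.00220) and 1.20 ± 0.14 (adjusted p = 5.17e-04). COL17A1, the transmembrane collagen of hemidesmosomes, was higher in L101P (1.76 ± 0.31, adjusted p = 0.00945) and E690K (2.28 ± 0.31, adjusted p = 0.00116).

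Of 20 proteases and inhibitors 17 were tested, with 0 higher and 2 lower in the KO-labelled line, 2 and 1 in L101P, 0 and 1 in E292V and 2 and 2 in E690K. MMP2, a gelatinase, was lower in the KO-labelled line (-2.47 ± 0.31, adjusted p = 0.00268), L101P (-1.97 ± 0.30, adjusted p = 0.00521) and E690K (-1.31 ± 0.29, adjusted p = 0.0229). PLAU, the urokinase, was higher in E690K (0.83 ± 0.09, adjusted p = 3.76e-04) and L101P (0.37 ± 0.09, adjusted p = 0.0417). The inhibitor TIMP1 was the 1 gene of the list called in E292V, at -0.66 ± 0.11 (adjusted p = 0.0134). Of 20 further collagen processing genes 18 were tested; 0 were called in the KO-labelled line and in E292V, 2 were lower in L101P, and 3 were higher and 1 lower in E690K. P3H3, a prolyl hydroxylase, was lower in L101P (-0.71 ± 0.12, adjusted p = 0.00938) and E690K (-0.47 ± 0.12, adjusted p = 0.0448), and QSOX1, a sulfhydryl oxidase of the secretory pathway, was higher in E690K (0.39 ± 0.07, adjusted p = 0.00915). Of 27 further elastic fibre and matricellular genes 23 were tested, with 2 higher and 3 lower in the KO-labelled line, 2 and 2 in L101P, 0 of either in E292V and 6 and 3 in E690K. TNC, tenascin, was higher in the KO-labelled line (1.87 ± 0.25, adjusted p = 0.00378), L101P (1.97 ± 0.25, adjusted p = 0.00198) and E690K (2.46 ± 0.26, adjusted p = 2.73e-04). SPP1, osteopontin, was lower in L101P (-0.74 ± 0.13, adjusted p = 0.00892) and E690K (-1.12 ± 0.13, adjusted p = 4.44e-04).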

How the data were processed

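Whole-number counts per gene for 10 libraries (33551 rows) were used as deposited. Per the submitters' processing notes, featureCounts, Subread, edgeR, limma and the build GRCh38 were used, with no versions or roles given. Per the labels' protocols, total-RNA libraries were made from lifted cells. Of the values from 1 to 10, 81.4% were even, so 95% Wilson intervals were computed on read pairs (counts divided by 2). They cover counting error only. Totals were 59430095 to 96811421 and TMM factors 0.972 to 1.03.

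Counts were fitted with edgeR 4.0.16 (R 4.3.3): TMM, filterByExpr (17978 genes), line plus vector, quasi-likelihood F-test, Benjamini-Hochberg, threshold 0.05. The standard error was the log2 fold change divided by the square root of F. The common dispersion was 0.0168 (coefficient of variation 12.9%). The fit was tested on simulated data. The pairing of untreated and transduced libraries comes from the cell lines, and line is the block of the vector effect. P-values measure only the spread between these libraries, and nothing in the labels says that the 2 libraries of a line are independent cultures.

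Genes, lists and tests were chosen with earlier results of these data known. By rule, values in each library are given for members called in any contrast and for the highest member per kilobase in each role. The 2 genes with the smallest adjusted p in each further list are named if called against WT. Of the genes in the further lists, TINAGL1 is given with values in each library and the others with log2 fold changes only. ABCA3 is always given. In the further lists, 1 gene is not reported here and is left out of its list's counts. Alternatives were DESeq2 1.42.0 as test or scaling, no filter, at least 10 counts in every library, exchanged KO labels, no replicate block, and each line left out. Coordinates and exon lengths are from GENCODE release 29. Exons of 18 members overlap another annotated gene, 16 of them on the opposite strand.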

Additional observations from a re-analysis of the deposited data

How the results depend on the processing

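The counts below are of the 41 genes called by edgeR unless DESeq2 is named. Other scaling and a minimum of 10 counts in every library moved no count by more than 1.5 times. Without a filter on low counts the calls were 11 in the KO-labelled line (4.05% of all genes), 11 in L101P (5.93%), 13 in E292V (2.73%), 22 in E690K (6.84%), 29 among the lines (15.1%), 16 in L101P against E292V and E690K (7.04%) and 9 for the vector (0.977%); the cause was not tested. With DESeq2 they were 8 in the KO-labelled line (4.14% of all genes) and 3 for the vector (0.629%); the cause was not tested. With the labels of the KO-labelled pair exchanged they fell to 3 in L101P and 5 in E690K. The vector effect with no replicate block gave 0 calls, as with the block of line. Leaving out 1 line at a time gave 2 to 11 calls in the KO-labelled line, 3 to 7 in L101P, 2 to 10 in E292V, 7 to 21 in E690K, 12 to 27 among the lines, 9 to 12 in L101P against E292V and E690K and 0 to 11 for the vector. The upper ends of 11, 10, 21, 27 and 11 calls all came without the L101P pair. No gene called with the settings of the report changed its direction in an alternative. COL4A1, called for the vector only without the L101P pair (0.29), was at -0.04 without the WT pair. Depth limits LAMA1 and LAMA4, which had at most 10 and 20 counts.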
